A study of Mus musculus with 22 samples.

Results

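Aortas of ovariectomised female mice without estrogen receptor alpha (ERaKO) were set against aortas of wild-type (WT) littermates, all carrying placebo pellets and so without added hormone. The comparison takes 8 of the 22 arrays of the study, chosen by their titles: 3 ERaKO placebo and 5 WT placebo. The remaining arrays are 3 ERaKO and 5 WT aortas from mice with 17beta-estradiol (E2) pellets, and 3 placebo and 3 E2 aortas from mice without estrogen receptor beta (ERbKO). All mice were C57BL/6, were 2.5 to 4.5 months old and had carried their pellet for 7 to 8 days. Each Affymetrix array was made from 5 ug of RNA of 1 aorta, without pooling. The labels do not say how the receptor genes were disrupted, nor that their loss was limited to a cell type. Precision is limited by the small number of arrays.

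Estrogen receptor alpha, encoded by Esr1, is a nuclear receptor that binds estradiol and then regulates genes at estrogen response elements or through other DNA-bound factors. It is present in endothelium and in vascular smooth muscle, where it is known for raising nitric oxide production and for limiting the response to vessel injury. The receptor can also be activated without its ligand through growth factor signalling, so a difference between genotypes without estradiol is a separate question from the response to estradiol.

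With placebo, Esr1 was the one gene that differed between ERaKO and WT aortas at an adjusted p under 0.05. Its strongest probe set read 5.50, 5.36 and 4.21 in the ERaKO arrays, against 8.39, 8.79, 8.63, 8.04 and 8.75 in the WT arrays, as log2 GCRMA signal. The groups lie far apart, and the highest ERaKO array is well under the lowest WT array. The log2 difference, ERaKO minus WT, was -3.49 ± 0.36 (SE), or 11.3-fold lower, with an adjusted p of 1.35e-04 in limma over 20410 tested probe sets. In the E2 arrays of other mice the same probe set read 5.43, 5.36 and 3.48 in ERaKO, against 8.83, 8.90, 8.68, 9.17 and 8.93 in WT. ERbKO placebo aortas, which lack the other receptor, read 8.85, 8.42 and 9.01, inside or just above the WT range. Esr1 lies on chromosome 10 at 4611989 to 5005633 (GRCm38.p6).

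The weaker probe set for Esr1 read 3.06, 3.79 and 3.51 in ERaKO placebo arrays, against 5.54, 5.69, 5.58, 4.83 and 4.42 in WT placebo arrays. These groups do not overlap either, yet the difference of -1.76 ± 0.34 (SE) had an adjusted p of 0.478 over all probe sets. With E2 its difference was -1.68, and there the adjusted p was 0.0394. The third Esr1 probe set stayed under the filter on low signal, as did those of Esr2, which encodes estrogen receptor beta. In 2 of the 3 ERaKO placebo arrays the strongest probe set kept a signal over 5, above the level of 4 that the filter uses. What transcript that signal comes from was not tested.

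**Figure D1:**
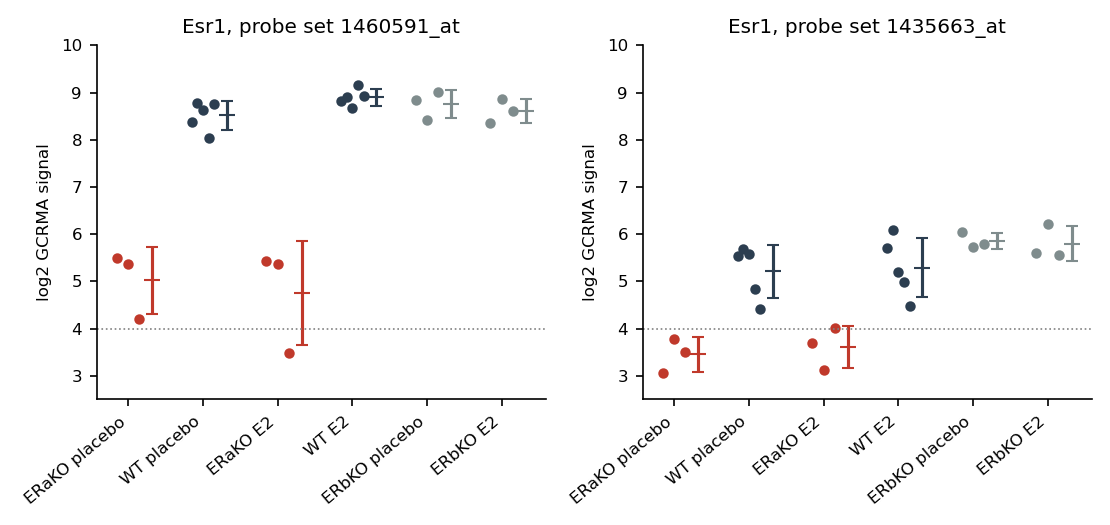
Log2 GCRMA signal of both tested Esr1 probe sets in each array (points) with the mean and SD of each group (bars), and the filter level of 4 as a dotted line. ERaKO arrays lie below all WT and ERbKO arrays in both panels.

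Across the genome, 1 of 20410 probe sets was called with placebo (0.0049%), and it is the brighter Esr1 probe set. At an unadjusted p under 0.05 there were 739 (3.62%), of which 579 were higher in ERaKO (2.84%) and 160 were lower (0.784%). That split follows the normalisation: after quantile normalisation it was 198 higher and 346 lower, and after centring each array on its median 161 higher and 430 lower. The median difference over all probe sets was 0.12 as deposited, 0.0064 after quantile normalisation and -0.023 after centring. Differences below are as deposited and are best read against that 0.12. The median SE of a difference was 0.258, and for 14964 probe sets (73.3%) the 95% interval lay within 1 log2 unit on either side of 0. A difference over 1 log2 unit was seen for 133 probe sets, 66 higher and 67 lower in ERaKO, against 539 in the E2 arrays.

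The count of calls depended on single arrays. Leaving out ERaKO placebo 1 gave 17 calls, and leaving out WT placebo 4 gave 4, with Zbtb7b, Pcsk5 and Ocel1 beside Esr1. Weighting arrays by their residual spread also gave 17, with a weight of 0.23 for WT placebo 4. At an unadjusted p under 0.05 the counts moved more widely: 1782 higher and 310 lower without ERaKO placebo 1, 250 and 128 without ERaKO placebo 2, and 1348 and 430 without WT placebo 4. They were 2346 higher and 732 lower with array weights, and 2154 higher and 802 lower with replicate number as a fixed block. A fit on the 8 placebo arrays alone called none, and Esr1 then had an adjusted p of 0.052 at the same difference, while an unadjusted p under 0.05 was found for 398 higher and 107 lower probe sets.

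**Figure D2:**
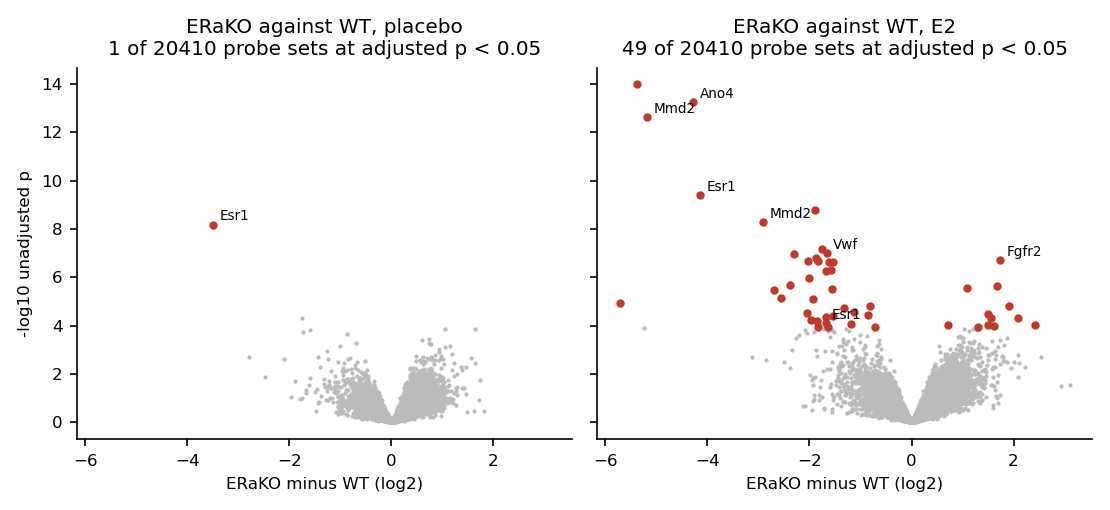
Difference between ERaKO and WT aortas (log2, horizontal) against the negative log10 of the unadjusted limma p (vertical) for 20410 probe sets, with placebo on the left and with E2 on the right. Probe sets at an adjusted p under 0.05 are red: 1 with placebo and 49 with E2.

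WT placebo 4 stands apart from its group. Its correlation with the other WT placebo arrays over the tested probe sets was 0.905 to 0.932, against 0.9504 to 0.968 among those other arrays. The mean of 33 smooth muscle genes was 9.88 there, against 10.67 to 10.99 in the other WT arrays, and the mean of 18 brown adipocyte genes was 11.05, against 8.997 to 9.95. ERaKO placebo 1 and WT placebo 1 carried a striated muscle signal: Acta1, the skeletal muscle actin, read 6.67, 4.09 and 4.15 in ERaKO and 10.09, 4.17, 4.23, 4.14 and 4.07 in WT placebo arrays. Xist, which marks female cells, read 10.40 to 10.87 in ERaKO and 10.01 to 11.04 in WT placebo arrays. In whole aortas, fewer cells of a type and less RNA per cell cannot be told apart.

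The genes with the smallest unadjusted p after Esr1 had modest differences, and none reached an adjusted p under 0.59. Of these 19 genes, 13 were higher and 6 lower in ERaKO, the arrays of the groups did not overlap for 10 (1.75% of all tested probe sets), and 8 had at least 1 group mean under 4. The 19 were chosen by p, so these counts do not test a difference. Adat2 and Odf2 were over 4 only on ERaKO arrays, and Anxa8 outside ERaKO only in WT with E2 (up to 4.19). Such genes passed the filter only or mainly through the group where they are high. Anxa8, a calcium-dependent phospholipid-binding annexin, read 4.04, 4.16 and 4.03 in ERaKO, against 2.78, 3.30, 2.98, 2.93 and 3.16 in WT placebo arrays. The groups do not overlap, but all values sit near the level where GCRMA gives background, and the difference was 1.04 ± 0.22 (SE, adjusted p = 0.599). Its difference with E2 was -0.13.

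Txnip, which binds and inhibits thioredoxin and restrains glucose uptake, was among the most abundant of these genes. It read 12.02, 11.94 and 12.38 in ERaKO, against 11.74, 11.19, 11.36, 11.38 and 11.19 in WT placebo arrays, a difference of 0.74 ± 0.17 (SE). Every ERaKO array was above every WT array, the other tested Txnip probe set differed by 0.70, and the difference with E2 was -0.12. Dusp10, a phosphatase of stress-activated kinases, differed by 0.85. Hoxa7, a homeobox factor, differed by 1.19, with its lowest ERaKO array inside the WT range.

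Pcsk5, a proprotein convertase that cleaves secreted precursors, read 7.86, 6.78 and 6.98 in ERaKO, against 8.85, 9.10, 8.94, 7.77 and 9.36 in WT placebo arrays. The groups overlap only through WT placebo 4, and the difference was -1.60 ± 0.34 (SE, adjusted p = 0.599); its second probe set differed by -0.019. Zfp317, a zinc finger protein, differed by -1.74 ± 0.38 (SE), with ERaKO at 4.21, 3.58 and 4.23 and WT at 5.91, 6.12, 5.43, 5.12 and 6.16. Here the groups are apart, and the E2 arrays gave -0.76. Myef2, a transcriptional repressor, differed by -0.88, Brd8, a bromodomain subunit of a histone acetyltransferase complex, by -0.69, Caap1, an inhibitor of caspase activity, by -1.26 and Slc35a5, of the nucleotide sugar transporter family, by -1.003. The probe sets of Brd8, Cog1, Fubp1 and Slc35a5 did not all lie on the same side of 0: those of Brd8 ran between -0.69 and 0.51.

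In the E2 arrays, which share no array with the placebo comparison, 11 of these 19 genes had the same sign and 4 of them also an unadjusted p under 0.05 (7.8% of all tested probe sets there), while none was called there. Over all 739 probe sets at an unadjusted p under 0.05 with placebo, 72.9% kept their sign with E2, against 62.9% of all tested probe sets, and among the 114 under 0.01 it was 65.8%. These shares are not matched for direction: 579 of the 739 were higher in ERaKO, against 69.6% of all tested probe sets. The median difference was positive in both contrasts, 0.12 with placebo and 0.075 with E2. How much of the agreement in sign that shift gives was not tested. E2 and placebo arrays of a genotype with the same replicate number deviated together (r of 0.28 to 0.62 in ERaKO and 0.31 to 0.61 in WT), so the E2 arrays are not a fully independent repeat.

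**Figure D3:**
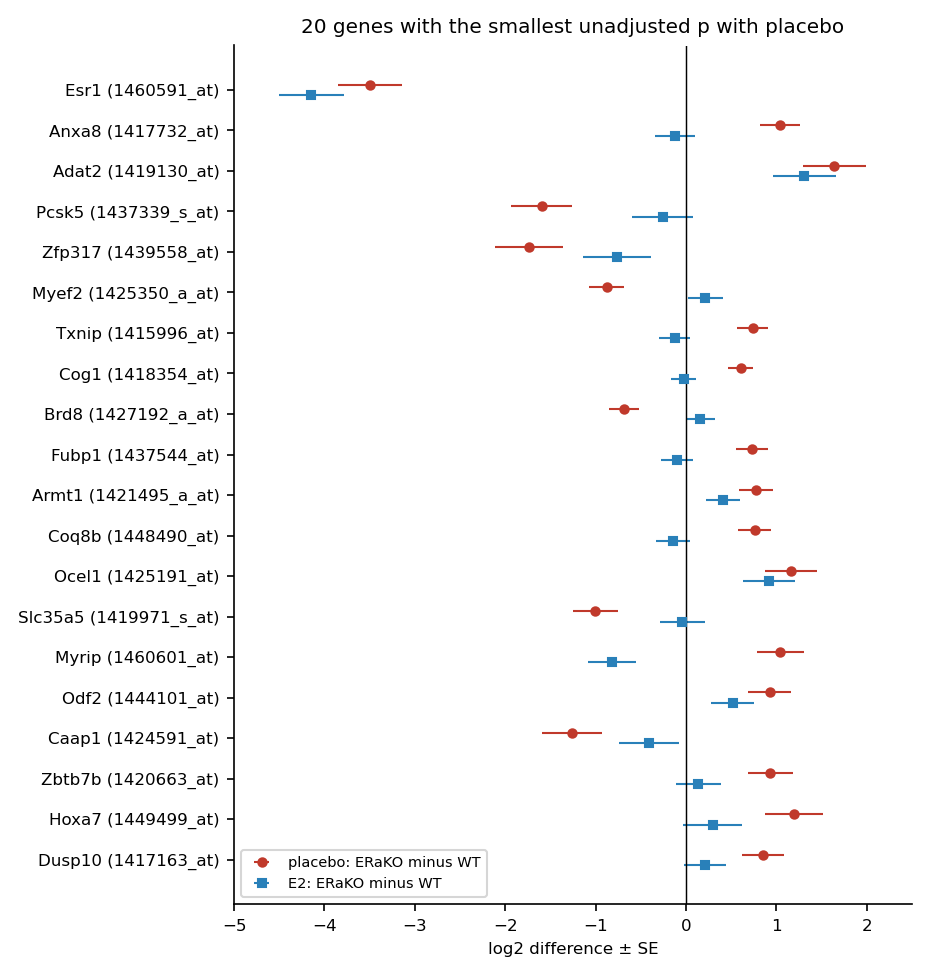
Log2 difference, ERaKO minus WT, with its SE for the 20 genes with the smallest unadjusted p with placebo, shown with placebo (red circles) and with E2 (blue squares). Esr1 (-4.14) and Adat2 (1.31) lie far from 0 with E2 too, while Txnip, Myef2 and Brd8 lie near 0 with E2 or across it.

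Genes near Esr1 were counted because a disrupted gene can keep flanking sequence of the strain it was made in after crossing to another. Within 20 Mb of the start of Esr1, 61 named genes other than Esr1 were tested. By each gene's brightest probe set, 3 were higher and 4 lower in ERaKO at an unadjusted p under 0.05, which is 11.5%, against 3.79% of all named genes. That count includes Adat2, which passed the filter only through ERaKO arrays, so its part in the share tests no difference. The next paragraph names more genes than were counted, among them Armt1 with the values of its dimmer probe set. The median difference of the 61 was 0.04, against 0.12 over all named genes.

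Adat2, a subunit of the deaminase that edits tRNA anticodons, lies 8.94 Mb from Esr1 at 13552907 to 13563376. It read 3.08, 4.70 and 4.24 in ERaKO, against 2.15, 2.24, 2.11, 3.08 and 2.26 in WT placebo arrays. The lowest ERaKO array equals the highest WT array to 2 decimals, and the other ERaKO arrays are far above it. Adat2 passed the filter on low signal only through ERaKO arrays. The difference was 1.64 ± 0.35 (SE, adjusted p = 0.599) with placebo and 1.31 with E2, while ERbKO minus WT was -0.13 with placebo. Armt1, a protein carboxyl methyltransferase at 4429275 to 4455140, 0.183 Mb before Esr1, read 4.58, 4.37 and 4.94 in ERaKO, against 3.74, 3.77, 3.75, 4.27 and 3.72 in WT placebo arrays. Its groups do not overlap for this dimmer probe set, which differed by 0.41 with E2. The brighter Armt1 probe set also read higher by 0.47, but with overlap (7.03 to 7.44 in ERaKO and 6.58 to 7.08 in WT placebo arrays). Other genes near Esr1 went both ways. Mtrf1l, 1.20 Mb away, read 4.99 to 5.65 in ERaKO and 5.86 to 6.43 in WT placebo arrays, lower without overlap. Ppil4, 3.18 Mb away, read 5.87 to 7.91 and 7.29 to 8.33. Myct1, 0.98 Mb away, read 6.38 to 6.57 and 5.76 to 6.53, and Mthfd1l, before Esr1, 4.28 to 6.19 and 3.70 to 5.13. Phactr2, Heca and Bclaf1, farther away, had lower medians in ERaKO. Whether the ERaKO mice carry flanking sequence of another strain there, or differ in probe binding, was not tested.

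The contrast with E2 gives a scale for these values. With E2, 49 probe sets were called between ERaKO and WT (0.24%), 37 lower and 12 higher in ERaKO. For the 35 that were lower with E2 and are not Esr1, the median difference was 0.03 with placebo and -1.84 with E2. For the 12 that were higher, it was 0.15 with placebo and 1.59 with E2. In 37 of these 47 the placebo interval lay within 1 log2 unit of 0, against 73.3% of all tested probe sets. The lowest placebo adjusted p was 0.955. Some of the 47 passed the filter only through E2 arrays and sat at background with placebo. Akr1cl read 3.16 to 3.39 in ERaKO and 2.88 to 3.35 in WT placebo arrays, and Hrct1 3.01 to 3.45 and 3.00 to 3.28. For such probe sets a small placebo difference was set in advance, so the placebo medians and the 37 do not test it. Of the 35, 3 were higher and 1 lower with placebo at an unadjusted p under 0.05, against 3.62% of all in either direction. Of the 12, 1 was higher and 0 lower. Placebo differences reached -1.43 among the 35 and 0.82 among the 12.

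The difference between genotypes itself differed between E2 and placebo for 14 probe sets (0.0686%), 13 of them lower in ERaKO with E2 relative to placebo. Same-numbered arrays of a genotype deviated together, and a fit with a replicate block gave 26, and with genotype and number as a random block 60. Mmd2, a membrane protein of the progestin and adipoQ receptor family, read 3.69, 4.23 and 4.22 in ERaKO placebo arrays, against 3.72, 3.26, 4.16, 4.61 and 3.77 in WT placebo arrays for the brighter of its probe sets. These overlap fully at background level, while with E2 it read 3.06, 2.98 and 3.41 in ERaKO, against 8.41, 8.31, 8.00, 8.56 and 8.41 in WT. Ano4, of the anoctamin family of ion channels and scramblases, read 2.38 to 2.61 in both ERaKO groups and in WT placebo arrays, below the filter level of 4, so its placebo difference of -0.02 sets background against background. With E2 it read 6.23 to 7.55 in WT, and the difference of -4.28 depends on where background lies.

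Vwf, the von Willebrand factor of endothelium, read 9.48, 9.33 and 9.24 in ERaKO placebo arrays, against 9.16, 8.79, 9.06, 8.72 and 8.31 in WT placebo arrays. ERaKO was thus above every WT array without hormone, by 0.54 ± 0.20 (SE, adjusted p = 0.955), and 1.66 below WT on the log2 scale with E2. Lmo2, a transcriptional regulator of blood and endothelial cells, differed by 0.50 ± 0.23 (SE, adjusted p = 0.955) with placebo, and lay 1.32 below WT with E2. Its placebo groups overlap (8.26 to 8.97 in ERaKO and 7.71 to 8.56 in WT). Ghr (growth hormone receptor), Tiparp (a poly-ADP-ribose polymerase), Heph (a ferroxidase), Il4ra (a cytokine receptor chain), Stc1 (a secreted glycoprotein) and Vldlr (a lipoprotein receptor) had placebo differences between -0.10 and 0.30. Fgfr2, a receptor of fibroblast growth factors, was the one with a positive interaction: it differed by 0.01 with placebo and by 1.74 with E2.

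**Figure D4:**
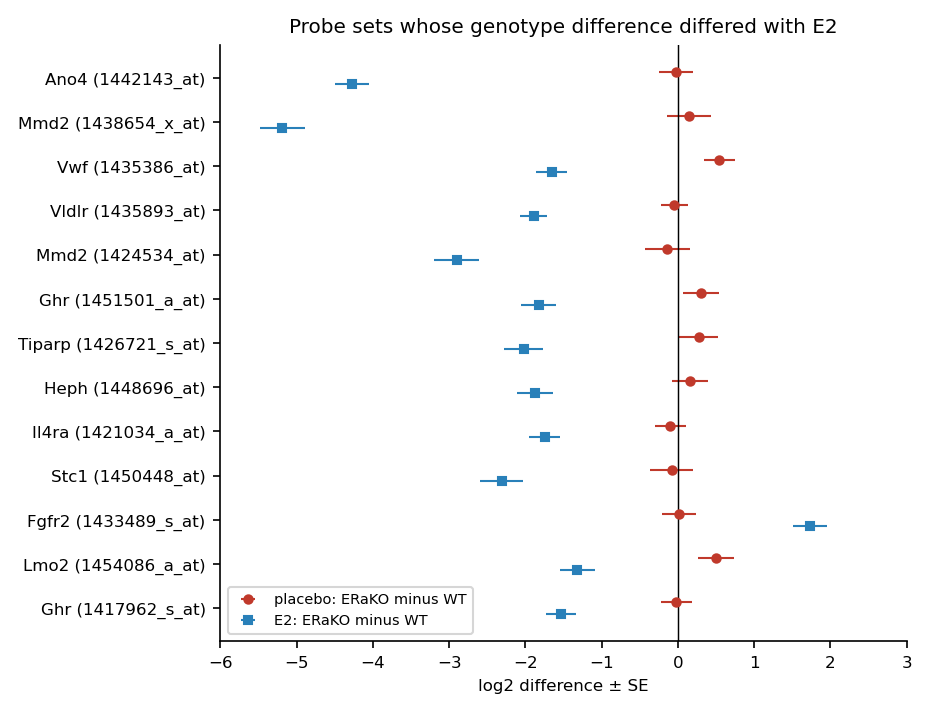
Log2 difference, ERaKO minus WT, with its SE for 13 named probe sets whose genotype difference differed between E2 and placebo (limma interaction, adjusted p under 0.05). With placebo (red circles) they lie between -0.14 and 0.54, and with E2 (blue squares) between -5.19 and 1.74.

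Of 23 tested genes known to respond to estrogen, none was called with placebo, 1 was lower in ERaKO at an unadjusted p under 0.05 and none higher, against 0.936% of named genes lower and 3.79% in either direction. The median difference was 0.08, against 0.12 over all named genes. It turned to -0.02 after quantile normalisation. The same genes had a median difference of -0.67 with E2. The list was chosen with earlier results of these data known, so that value is not independent evidence. The one lower gene was Igf1, insulin-like growth factor 1, which read 7.69, 8.46 and 8.15 in ERaKO, against 8.99, 8.97, 8.82, 8.62 and 9.32 in WT placebo arrays. All ERaKO arrays were below all WT arrays, by 0.84 ± 0.40 (SE, adjusted p = 0.955), and the difference with E2 was 0.01. Pgr, the progesterone receptor and a classical estrogen target, read 7.75, 8.39 and 7.58 in ERaKO and 7.65, 7.46, 7.88, 6.53 and 8.89 in WT placebo arrays. Its groups overlap, and the 95% interval of the difference ran between -0.55 and 0.99. Greb1, another target, did not pass the filter.

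Among growth factors and their receptors, 2 of 30 were lower at an unadjusted p under 0.05 and none higher, against 0.936% of named genes lower. They are Igf1 and Igfbp3, which binds and carries insulin-like growth factors. Igfbp3 read 5.30, 3.76 and 3.55 in ERaKO, against 6.13, 5.44, 5.80, 4.88 and 5.81 in WT placebo arrays, a difference of -1.41 ± 0.45 (SE, adjusted p = 0.955). The groups overlap through ERaKO placebo 1, and the E2 difference was -0.11.

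Of 30 tested endothelial genes, 3 were higher in ERaKO at an unadjusted p under 0.05 and none lower, against 2.86% of named genes higher, and none was called. The list's median difference was 0.28, against 0.12 over all named genes, and 0.14 after centring. Besides Vwf they are Aqp1, a water channel, at 0.54, and Ptprb, the endothelial receptor phosphatase, also at 0.54. Ptprb read 9.38, 9.58 and 9.41 in ERaKO, against 9.13, 9.17, 8.97, 8.73 and 8.59 in WT placebo arrays, with no overlap. Nos3, the endothelial nitric oxide synthase, read 7.67, 7.27 and 7.50 in ERaKO, against 7.00, 7.07, 6.94, 7.63 and 6.92 in WT placebo arrays. WT placebo 4 lies inside the ERaKO range, and the difference was 0.37 ± 0.27 (SE, adjusted p = 0.955). The list mean was 7.39, 7.43 and 7.47 in ERaKO and 6.87 to 7.51 in WT placebo arrays.

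None of 33 smooth muscle genes passed even an unadjusted p of 0.05. Myh11, the smooth muscle myosin heavy chain, read 13.12, 13.60 and 13.61 in ERaKO, against 13.33, 13.20, 13.50, 12.19 and 13.40 in WT placebo arrays. The list's median difference was 0.22, and 0.02 without WT placebo 4. Among 31 genes of vasoactive signalling, 2 were higher at an unadjusted p under 0.05 and none lower, against 2.86% of named genes higher, and neither was called. They are Slco2a1, a prostaglandin transporter, at 0.86, and Ramp2, the partner of the adrenomedullin receptor, at 0.67.

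Among 32 collagen and elastic fibre genes, 1 was lower at an unadjusted p under 0.05 and none higher, against 0.936% of named genes lower and 3.79% in either direction. The list's median difference was 0.0041. The one member is Col3a1, the chain of type III collagen, which read 13.48, 13.81 and 13.66 in ERaKO, against 14.18, 14.35, 14.07, 13.95 and 14.33 in WT placebo arrays. All ERaKO arrays were below all WT arrays, by 0.53 ± 0.16 on the log2 scale (SE, adjusted p = 0.955), its second probe set differed by -0.86, and the E2 difference was 0.08. Of 28 proteoglycans and matricellular genes, 2 were lower at an unadjusted p under 0.05, against 0.936% of named genes: Cilp, a cartilage matrix protein, at -1.22, and Matn2, a matrilin, at -1.31. Neither was called.

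Metabolic genes had mostly positive differences, with no call. Over all named genes, 7162 of 10260 differences were positive. Of 72 electron transport chain and ATP synthase genes, 63 had a positive difference, 1 with an unadjusted p under 0.05, with a median of 0.29. The list mean was 11.90 to 12.11 in ERaKO, inside the 11.23 to 12.30 of WT placebo arrays. Genes of a list share the same arrays, so the count of positive genes is not a count of independent results. Of 35 genes of the TCA cycle and fatty acid oxidation, 32 were positive and the median was 0.37. Their mean was 11.40 to 11.87 in ERaKO, inside the 10.74 to 12.09 of WT placebo arrays. Mdh1, the cytosolic malate dehydrogenase, was at -0.95 with an unadjusted p under 0.05. Its groups overlap (11.10 to 13.55 in ERaKO with a median of 12.91, and 13.18 to 13.84 in WT placebo arrays). The Mdh1 difference ran between -1.47 and -0.24 over the alternatives. Over the alternatives run, the median of the electron transport list ran between 0.14 and 0.44, that of the TCA and fatty acid list between 0.22 and 0.58, that of white adipocyte markers between 0.35 and 0.73 and that of brown adipocyte markers between 0.20 and 0.74. The study itself reported electron transport genes from these samples, so that direction is not independent evidence. White adipocyte markers moved with them: 20 of 21 were positive with a median of 0.53, 1 of them (Plin4, a lipid droplet coat protein, at 0.54) with an unadjusted p under 0.05, and their mean was 10.63, 10.30 and 10.39 in ERaKO, against 9.49, 10.28, 9.37, 10.83 and 9.76 in WT placebo arrays. Brown adipocyte markers were positive in 16 of 18, with a mean of 10.27, 10.02 and 10.14 in ERaKO, against 9.65, 9.95, 8.997, 11.05 and 9.32 in WT. Ucp1, the uncoupling protein of brown fat, read 13.44 to 13.71 in ERaKO and 12.48 to 14.07 in WT placebo arrays, and Adipoq, which encodes adiponectin, read 12.69 to 12.78 in ERaKO and 11.68 to 13.08 in WT placebo arrays. Fat markers were abundant on all 8 arrays, and their part in the metabolic differences was not tested.

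Macrophage markers had a median of -0.39, with 2 of 21 positive and none at an unadjusted p under 0.05. Their mean was 6.94, 5.96 and 6.51 in ERaKO and 7.34, 6.85, 6.87, 6.62 and 6.41 in WT placebo arrays, so the groups overlap. The median was -0.095 without ERaKO placebo 2. Striated muscle markers had a median of -0.53, which turned to 0.53 without WT placebo 1.

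Clock genes varied between arrays of a group. Nr1d1, the repressor REV-ERB alpha, read 5.54, 8.42 and 8.79 in ERaKO, against 5.06, 3.43, 6.40, 6.88 and 7.59 in WT placebo arrays. Dbp, a clock output factor, read 6.81, 10.80 and 10.90 in ERaKO, against 8.56, 6.36, 10.41, 8.95 and 8.28 in WT placebo arrays for the dimmer of its probe sets. ERaKO placebo 1 is low and the other ERaKO arrays are high in both genes, and WT arrays spread as widely. The list's median of 17 genes was 0.42, and 0.73 without ERaKO placebo 1 but 0.10 without ERaKO placebo 2. Only Cry2, a clock repressor, had an unadjusted p under 0.05, at 0.58. The labels give no time of collection.

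In the other 17 lists the medians lay between -0.31 for mesothelial markers and 0.18 for steroid metabolism, and Esr1 was the one called member. Members at an unadjusted p under 0.05 and higher in ERaKO were Gstm1, a glutathione transferase (0.52), Txnrd3, a thioredoxin reductase (0.54), Hsd17b10, a mitochondrial dehydrogenase (0.52), Ddx58, a sensor of viral RNA (0.45), and Fzd4, a Wnt receptor (0.47). Lower were Esr1, Hsd17b4, a peroxisomal enzyme that also oxidises estradiol (-2.48), and Mki67, a marker of dividing cells (-1.24). Only the antioxidant list had more than 1 such member in a direction, 2 of 39 higher, and most of these lists had none. Over all named genes, 2.86% were higher and 0.936% lower at that level. Mki67 read 4.13, 3.35 and 3.99 in ERaKO, against 7.60, 4.41, 4.49, 4.95 and 3.85 in WT placebo arrays, and WT placebo 1 is the highest by far. Hsd17b4 read 11.34, 6.93 and 7.63 in ERaKO, against 10.79 to 11.83 in WT placebo arrays, so ERaKO placebo 1 lies inside the WT range. With E2 its lowest WT array read 7.63.

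**Figure D5:**
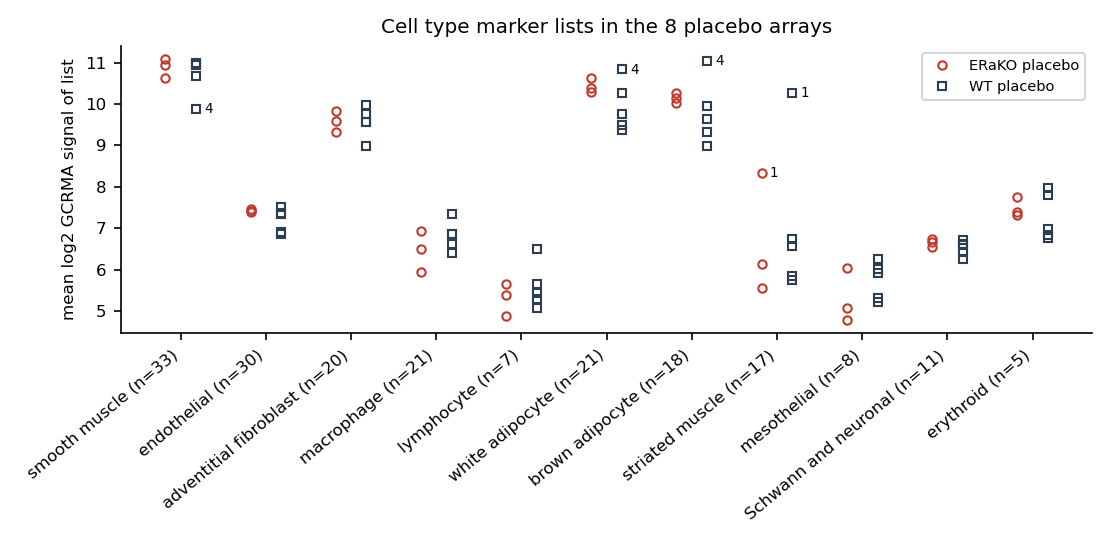
Mean log2 GCRMA signal of 11 cell type marker lists in each of the 8 placebo arrays, ERaKO as circles and WT as squares, with the number of genes in brackets and the replicate number beside outlying arrays. WT placebo 4 is low for smooth muscle and high for adipocyte lists, and ERaKO placebo 1 and WT placebo 1 are high for striated muscle.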

How the data were processed

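The deposited table holds log2 values made by the authors with GCRMA, per the submitters' processing notes, 1 per probe set and array. The authors' deposited limma table gives a log2 fold and a p-value per probe set. Differences of group means equalled its log2 folds to within 4.95e-08, and refitted p-values over all 45101 probe sets to within 4.49e-08. After 64 control probe sets were left out, 20410 with a log2 value over 4 on at least 3 of 22 arrays were tested. All 22 arrays entered one model of group means, fitted with limma 3.58.1 in R 4.3.3, two-sided, with Benjamini-Hochberg adjustment. A call is an adjusted p under 0.05. Symbols came from the array annotation, updated through Entrez IDs to RefSeq: 17563 tested probe sets have 1 symbol, 532 several and 2315 none. Of a gene's probe sets, lists use the brightest. Where fewer than 5 genes were called, the rule names the 20 with the smallest unadjusted p, members of 31 lists, and genes always reported. Members and lists were chosen with earlier results of these data known. The fit was tested on simulated data. Alternatives covered filters, normalisation, variance models, samples in the fit, blocks and left-out arrays. None of 3 same-numbered pairs of ERaKO and WT placebo arrays correlated best with its own number (r of -0.11 to 0.27), so number was not taken to pair the genotypes. So few pairs cannot decide whether arrays of a number share a factor, and counts with number as a block are given below. Within a genotype every r between same-numbered E2 and placebo arrays was over 0.28.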

Additional observations from a re-analysis of the deposited data

Results flagged for a closer look

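In 17 cases of the 41 probe sets and 31 list means that were checked, 1 of the 5 WT placebo arrays lay far from the others by Dixon's 95% criterion, which chance meets in about 1 in 20 groups. WT placebo 4 was the far array for Adat2 (3.08), Armt1 (4.27), Myh11 (12.19), Xist (10.01) and Nos3 (7.63). It was also far in the means of smooth muscle genes (9.88), collagen and elastic fibre genes (8.99), proteoglycans and matricellular genes (8.22), matrix proteases and inhibitors (7.22), vasoactive signalling genes (7.60) and growth factor receptors and ligands (7.34). WT placebo 1 was far for Acta1 (10.09) and in the means of striated muscle genes (10.26) and cell cycle genes (6.71). WT placebo 3 was far for Cog1 (3.85), Il4ra (4.47) and the mean of interferon-stimulated genes (6.76).

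The difference between ERaKO and WT aortas itself differed with E2 from that with placebo, by the limma interaction, for 13 named probe sets. The difference with E2 minus that with placebo was -5.33 and -2.76 for the probe sets of Mmd2, -4.25 for Ano4, -2.30 for Tiparp, -2.22 for Stc1 and -2.20 for Vwf. It was -2.13 and -1.51 for those of Ghr, -2.03 for Heph, -1.84 for Vldlr, -1.82 for Lmo2 and -1.65 for Il4ra. For Fgfr2 it was 1.72.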

How the results depend on the processing

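The placebo count of 1 became 0 with the 8 placebo arrays alone (Esr1 then at -3.49), 17 with array weights, 2 with a fixed replicate block (both Esr1 probe sets) and 5 without ERaKO placebo 1 and WT placebo 1, an alternative chosen after seeing the data. Leaving out single arrays gave 1 to 17 placebo calls, 28 to 91 E2 calls and 7 to 21 interaction calls. The E2 count of 49 became 12 with the 8 E2 arrays alone and 155 with the fixed block. The interaction count of 14 became 9 with no filter, 26 with the fixed replicate block and 60 with the random one. With the fixed block, probe sets at an unadjusted p under 0.05 with placebo were 2154 higher and 802 lower, against 579 and 160 without it. Same-numbered ERaKO and WT arrays had r of -0.11 to 0.27 with placebo and -0.17 to 0.39 with E2, where 1 of 3 pairs (number 1) correlated best with its own number. Arrays numbered 1 had the highest striated muscle mean in each of the 6 groups. Esr1 kept its direction in every alternative run.

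Placebo differences near 0 changed sign. Fgfr2 was -0.13 after quantile normalisation or centring, -0.10 with array weights and -0.061 with the replicate block. The brighter Ghr probe set was 0.017 with weights and 0.14 with the block, and Vldlr was 0.0045 without both arrays rich in striated muscle markers. With single arrays left out, differences ran between -1.22 and 0.81 for Acta1, -0.066 and 0.027 for Ano4, -0.12 and 0.11 for Fgfr2, -0.23 and 0.13 for the brighter Ghr probe set, -0.016 and 0.33 for Heph, -0.29 and 0.16 for Il4ra, -0.016 and 0.33 for the brighter Mmd2 probe set, -0.068 and 0.52 for Pgr, -0.18 and 0.030 for Stc1, -0.19 and 0.054 for Vldlr, and -0.23 and 0.080 for Xist. The causes were not tested. Signals near or under 4 are close to background, so differences of Anxa8, Adat2, Ano4 and Mmd2 at that level are least certain.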

Other observations

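Genes called when ERaKO placebo 1 was left out were looked at after their values were seen. C1galt1, a glycosyltransferase of mucin-type O-glycans, read 7.97, 3.11 and 3.25 in ERaKO, against 8.06, 8.61, 7.57, 6.37 and 7.27 in WT placebo arrays, for one of its probe sets. ERaKO placebo 1 lies inside the WT range and the other ERaKO arrays more than 3 log2 units below it, and without that array the difference was -4.39 (adjusted p = 9.31e-04). The other C1galt1 probe sets differed by -0.27 and -0.42 with all arrays, so the drop is in 1 of the gene's 3 tested probe sets. Mex3c, an RNA-binding ubiquitin ligase, had the same arrangement, with 9.17, 5.29 and 6.41 in ERaKO, against 9.48, 9.65, 9.48, 7.62 and 9.10 in WT placebo arrays. For Rdx, the membrane linker radixin, 1 probe set read 10.53, 8.57 and 8.46 in ERaKO, against 9.95 to 10.83 in WT, while its other probe sets differed by 0.13 and -0.03. Hsd17b4 was called neither there nor in any other alternative, with a lowest adjusted p of 0.126 in limma. It is shown for its similar arrangement. Hsd17b4 read 11.34, 6.93 and 7.63 in ERaKO, against 10.79, 11.35, 10.80, 11.83 and 10.79 in WT placebo arrays (difference -2.48, adjusted p = 0.955). With E2 that C1galt1 probe set read 7.00 to 7.24 in ERaKO and 6.93 to 9.06 in WT, and Mex3c 8.70 to 9.55 and 8.21 to 9.46. The Rdx probe set then read 9.73 to 10.88 and 9.52 to 10.99, and Hsd17b4 6.56 to 10.83 and 7.63 to 10.84. The low values of C1galt1, Mex3c and Rdx were thus not seen in ERaKO arrays with E2.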
